A study of Mus musculus with 12 samples.

Results

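The complement system is a cascade of secreted proteins that tags cells, debris and synapses for removal. C1q, built from the chains encoded by C1qa, C1qb and C1qc, starts the classical pathway, which cleaves C4 and then C3; the receptors C3ar1 and C5ar1 sense the released fragments, complement receptor 3 (Itgam paired with Itgb2) binds opsonised targets, and Serping1 encodes C1 inhibitor, which blocks the proteases bound to C1q. In the brain, microglia are the main source of C1q, C4 is made largely by glia, and C1q and complement receptor 3 take part in the removal of synapses.

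These genes were followed in the striatum of 12 mice, with 1 expression array per mouse. All were on the C57BL/6 strain. Q92 mice are HdhQ92/Q92 knock-ins, in which both copies of the mouse gene for huntingtin (Htt, older symbol Hdh) carry 92 CAG repeats from exon 1 of the human disease gene; the allele is at its own locus, so no cell type is targeted. The 4 groups of 3 mice were wild type at 3 months (100 to 103 days, 1 female and 2 males), Q92 at 3 months (100 to 103 days, 2 females and 1 male), wild type at 18 months (596 to 604 days, 2 females and 1 male) and Q92 at 18 months (567 to 596 days, 2 females and 1 male). Mice are named by their group and animal number. Values are log2 signals of a probe set, so a difference of 1 is a doubling, and groups are given as mean ± SD (n = 3 mice).

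Of the 9 genes followed, 8 had a probe set in the table that pairs probe sets with genes, 13 probe sets in all out of 45037 tested. They were taken by name alone: C1qb and C3ar1 have 3 each, C5ar1 has 2, and C1qa, C1qc, Serping1 and Itgam have 1 each. C4b is read by a single probe set that the table also assigns to its near-identical neighbour C4a, so its signal cannot be divided between them. The signal of C3 was not analysed here, because no probe set was paired with it. A gene is represented by its brightest probe set unless another is named. Of the 13 probe sets, 10 lay above the 40th percentile of mean signal, a mark of low signal; both C5ar1 probe sets and 1 of C3ar1 (1442082_at) lay at or below it. The number of arrays limits the precision. Array correlations, averaged over the other arrays, were lowest in mice wt_3m_467 and Q92_18m_66 (0.987 and 0.988). Htt did not pass in any comparison (log2 difference of Q92 from wild type 0.30 at 3 and 0.10 at 18 months, adjusted p = 1.00 and 0.883).

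P2ry12 and Tmem119, defining genes of microglia, read 7.50 and 6.60 on average in wild-type mice at 3 months. Levels of different probe sets cannot be set against each other, so these values do not rank microglia against other cell types.

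The first question was what ageing did in wild-type striatum. C4b rose 4.90-fold from 3 to 18 months, and the signals of C1qa, C1qb and C1qc were 2.12-fold, 2.03-fold and 2.21-fold higher without passing the test. Serping1 was 1.86-fold higher at 18 months and Itgam 1.43-fold, neither past the test. A probe set passes here when its p-value in limma, adjusted over all 45037 probe sets, is under 0.05. In this comparison 1 of the 13 complement probe sets passed, against 0.0511% of all probe sets. In 10 of the 13 the 3 older mice lay entirely above the 3 younger ones, against 7.53% of all probe sets, and an unadjusted p under 0.05 with a higher mean at 18 months was reached by 10, against 5.26% of all. Both counts include the 3 probe sets of C1qb and also 1419483_at and 1442082_at of C3ar1, so they are not counts of genes. The median log2 difference of the 13 was 0.88, and that of all probe sets was -0.03.

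**Figure D1:**
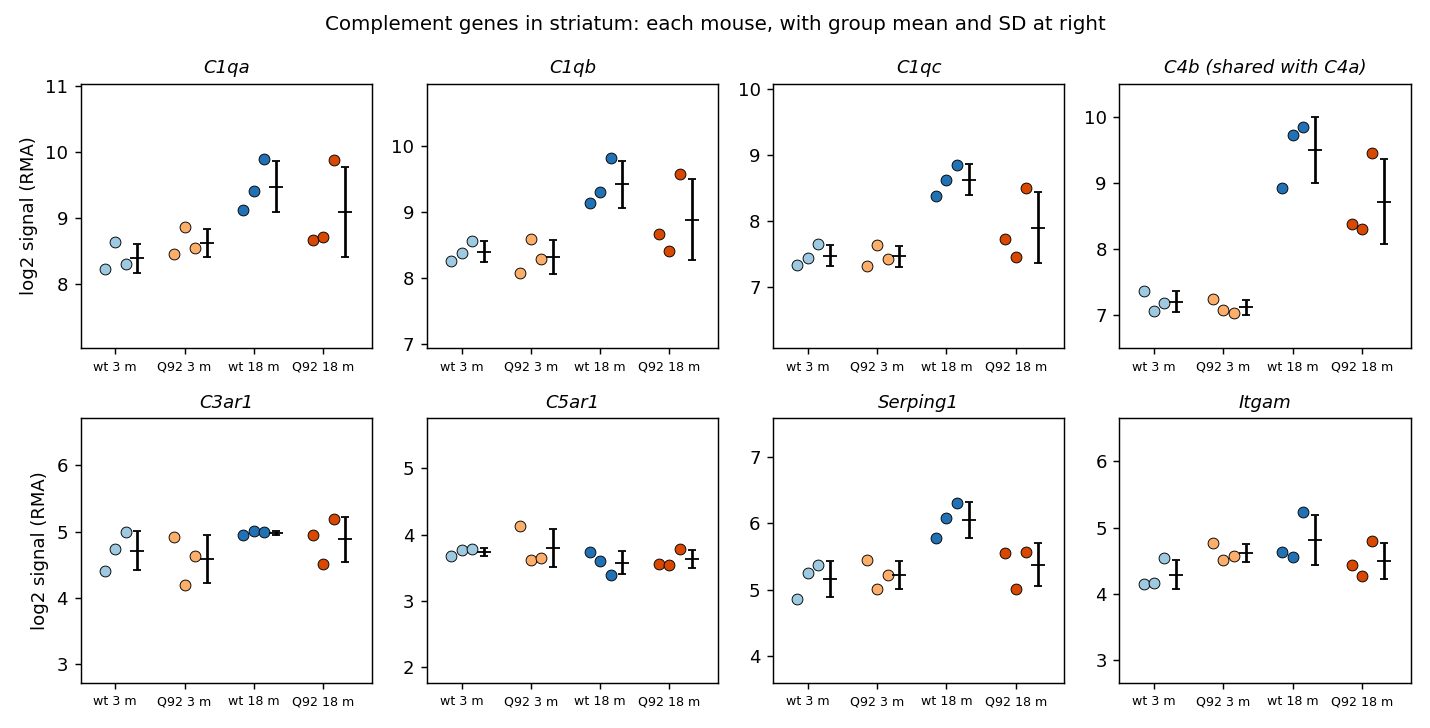
Log2 signal of the brightest probe set of 8 complement genes (vertical axis, each panel spanning the same number of log2 units) in each mouse by group (horizontal axis); points are mice in order of animal number and bars are mean and SD of 3 mice. C4b is higher in all 6 mice at 18 months than in all 6 at 3 months, and 1 Q92 mouse (Q92_18m_66) reads well above the other 2 for the C1q chains and C4b.

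C4b encodes the complement protein that C1's protease C1s cleaves in the classical pathway. Its signal at 3 months was 7.37, 7.06 and 7.18 in wild-type mice wt_3m_436, wt_3m_438 and wt_3m_467. At 18 months it was 8.93, 9.72 and 9.85 in wild-type mice 9, 12 and 17. Every older mouse thus lay well above every younger one. In wild type the log2 difference was 2.29 (SE 0.28, 95% confidence interval 1.68 to 2.91, adjusted p = 0.0223), and it ranked 4 among all probe sets by p.

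In Q92 mice C4b read 7.24, 7.08 and 7.03 at 3 months (mice Q92_3m_439, Q92_3m_440 and Q92_3m_466). The older ones read 8.38, 8.31 and 9.45 (mice 11, 25 and 66). The 3 older Q92 mice lay entirely above the younger ones, with mouse 66 well above the other 2. The log2 difference was 1.60 (SE 0.28, interval 0.99 to 2.21, a 3.03-fold rise, adjusted p = 0.0467), or 1.23 (adjusted p = 0.0797) without mouse 66. C4b was again the 1 complement probe set of 13 that passed, where 0.206% of all probe sets did (0.0422% upward), and also the only 1 whose older mice lay entirely above the younger, against 7.83% of all.

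With both genotypes averaged, C4b rose 3.85-fold with age (log2 difference 1.95, SE 0.20, adjusted p = 0.00588), the smallest p of all 45037 probe sets, and was higher in 6 of 6 older mice than in any younger one, as were 0.935% of all probe sets. No other complement probe set passed; 0.444% of all probe sets did in either direction and 0.289% upward. This averaged call held in all 22 other settings tried (log2 difference 1.76 to 2.09, adjusted p 0.00171 to 0.0221). The calls within each genotype were less firm, although the differences stayed large: the wild-type call held in 15 of 23 settings (2.12 to 2.58) and the Q92 call in 8 of 23 (1.23 to 1.80). The Q92 call held without mouse wt_18m_9 or Q92_18m_25 and was lost without any other single mouse (adjusted p 0.0564 to 0.202). The wild-type call ended with sex as a covariate (adjusted p = 0.0766) and without any 1 of mice wt_3m_436, wt_3m_438, wt_3m_467, Q92_3m_440, Q92_3m_466, wt_18m_12 and wt_18m_17 (adjusted p 0.0509 to 0.0833).

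The genes of the C1q chains are consecutive on mouse chromosome 4 in the order C1qb, C1qc, C1qa, with 0 other genes between them in the RefSeq table. The 250 bases before the start of C1qb and C1qc are shown because these neighbours moved most alike, and those of Itgam because it shares their motif. All are from RefSeq, build GRCm38.p6, written 5′ to 3′ on the gene's strand. Of the 9 genes, 6 had an entry, while C1qa, C4b and Serping1 did not. Capitals mark the core GAGGAA (or TTCCTC, its reverse complement), the kind of site bound by ETS factors such as PU.1, a regulator of microglia and other myeloid cells.
C1qb, chr4:136886201-136886450, minus strand: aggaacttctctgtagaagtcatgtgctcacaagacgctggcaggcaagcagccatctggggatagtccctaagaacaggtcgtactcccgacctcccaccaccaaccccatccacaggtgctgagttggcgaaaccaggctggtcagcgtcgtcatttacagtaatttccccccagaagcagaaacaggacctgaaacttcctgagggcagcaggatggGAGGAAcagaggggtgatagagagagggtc
C1qc, chr4:136892915-136893164, minus strand: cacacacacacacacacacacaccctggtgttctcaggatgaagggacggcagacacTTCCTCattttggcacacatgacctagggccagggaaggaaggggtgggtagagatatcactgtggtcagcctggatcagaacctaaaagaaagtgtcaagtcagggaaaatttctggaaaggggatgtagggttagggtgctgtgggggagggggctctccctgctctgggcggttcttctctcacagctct
Itgam, chr7:128062390-128062639, plus strand: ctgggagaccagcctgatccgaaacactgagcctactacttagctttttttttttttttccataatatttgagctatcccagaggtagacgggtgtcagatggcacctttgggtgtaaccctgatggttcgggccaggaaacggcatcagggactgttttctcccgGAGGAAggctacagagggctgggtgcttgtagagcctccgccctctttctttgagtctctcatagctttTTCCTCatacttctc
The core began 30 bases before the start in C1qb and 193 before it in C1qc, and it occurred at 84 and 15 bases before the start of Itgam. Of all 32817 such windows, 23.3% hold it on either strand, so a match is common. The windows of C3, C3ar1 and C5ar1 do not hold these letters. C3ar1 holds the AP-1 letters TGANTCA at 22 bases before its start, as do 6.75% of windows. An interferon-stimulated response element (in 2.97% of windows), the STAT letters TTCNNNGAA (7.01%) and the C/EBP letters TTGCNNNAA (8.29%) were found before none of C1qb, C1qc, C3, C3ar1, C5ar1 and Itgam.

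C1qa read 8.22, 8.64 and 8.31 in wild-type mice wt_3m_436, wt_3m_438 and wt_3m_467 at 3 months. It read 9.12, 9.42 and 9.90 in mice 9, 12 and 17 at 18 months. All 3 older wild-type mice lay above the younger ones. The log2 difference was 1.09 (SE 0.28, interval 0.47 to 1.70, adjusted p = 0.242). In Q92 mice it read 8.46, 8.87 and 8.55 at 3 months. The older Q92 mice read 8.67, 8.72 and 9.87, so that 2 of them lay within the range of the younger ones and mouse 66 lay well above it. That difference was 0.46 (interval -0.15 to 1.08, adjusted p = 0.621).

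C1qb rose from 8.39 ± 0.15 to 9.42 ± 0.35 in wild-type means, a log2 difference of 1.02 (SE 0.26, interval 0.46 to 1.58) that did not pass (adjusted p = 0.236). In Q92 mice it read 8.31 ± 0.25 and 8.88 ± 0.61, a difference of 0.57 (adjusted p = 0.471). Its other 2 probe sets, both of the type that can share probes with other transcripts, differed by 1.04 (1437726_x_at) and 0.78 (1434366_x_at) in wild type and by 0.53 and 0.32 in Q92 mice. All 3 probe sets thus gave the same direction in both genotypes.

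C1qc read 7.34, 7.43 and 7.64 in young wild-type mice wt_3m_436, wt_3m_438 and wt_3m_467. It read 8.38, 8.62 and 8.85 in the older mice 9, 12 and 17. The groups did not overlap, and the log2 difference of 1.14 (SE 0.22, interval 0.67 to 1.62) did not pass (adjusted p = 0.134). In Q92 mice it read 7.32, 7.64 and 7.42 at 3 months. The older ones read 7.73, 7.46 and 8.50, a difference of 0.43 (interval -0.04 to 0.91, adjusted p = 0.519). Averaged over both genotypes C1qc was 1.73-fold higher at 18 months, just short of the threshold (adjusted p = 0.0503). It passed in 10 of 22 other settings (adjusted p 0.0262 to 0.118 over all 22), among them leaving out mouse Q92_18m_66 (0.0372) or mouse Q92_18m_25 (0.0262). In wild type alone it passed in 3 of 23, namely with array weights (0.0479), without mouse Q92_18m_66 (0.0134), and without that array and wt_3m_467 (0.0224).

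Serping1 read 4.85, 5.25 and 5.38 in young wild-type mice wt_3m_436, wt_3m_438 and wt_3m_467. It read 5.77, 6.08 and 6.31 in the older mice 9, 12 and 17. The older mice lay above the younger ones, with a log2 difference of 0.90 (SE 0.19, interval 0.48 to 1.31) that did not pass (adjusted p = 0.165). In Q92 mice C1 inhibitor transcripts read 5.44, 5.01 and 5.21 at 3 months. They read 5.56, 5.01 and 5.57 at 18 months, a range that overlaps the younger one. The difference was 0.16 (interval -0.26 to 0.57, adjusted p = 0.836).

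The receptors differed among themselves. Itgam read 4.29 ± 0.22 and 4.80 ± 0.38 in wild-type mice at 3 and 18 months, a log2 difference of 0.52 (interval 0.11 to 0.93, adjusted p = 0.383). In Q92 mice it read 4.62 ± 0.13 and 4.50 ± 0.27, a difference of -0.12 (adjusted p = 0.880). The 3 probe sets of C3ar1, the C3a receptor gene, disagreed in size. In wild type the brightest (1419482_at) differed by 0.27 (adjusted p = 0.654), while 1419483_at differed by 0.88 (interval 0.49 to 1.27, adjusted p = 0.158) and 1442082_at by 0.46 (adjusted p = 0.288). In Q92 mice the 3 differed by 0.30, 0.38 and 0.38. Averaged over both genotypes, 1419483_at was 1.55-fold higher at 18 months (adjusted p = 0.0528). C5ar1, the C5a receptor gene, had low signal throughout (group means 3.57 to 3.80 for the brighter probe set), and its age difference was -0.17 in each genotype (adjusted p = 0.691 in wild type and 0.746 in Q92).

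**Figure D2:**
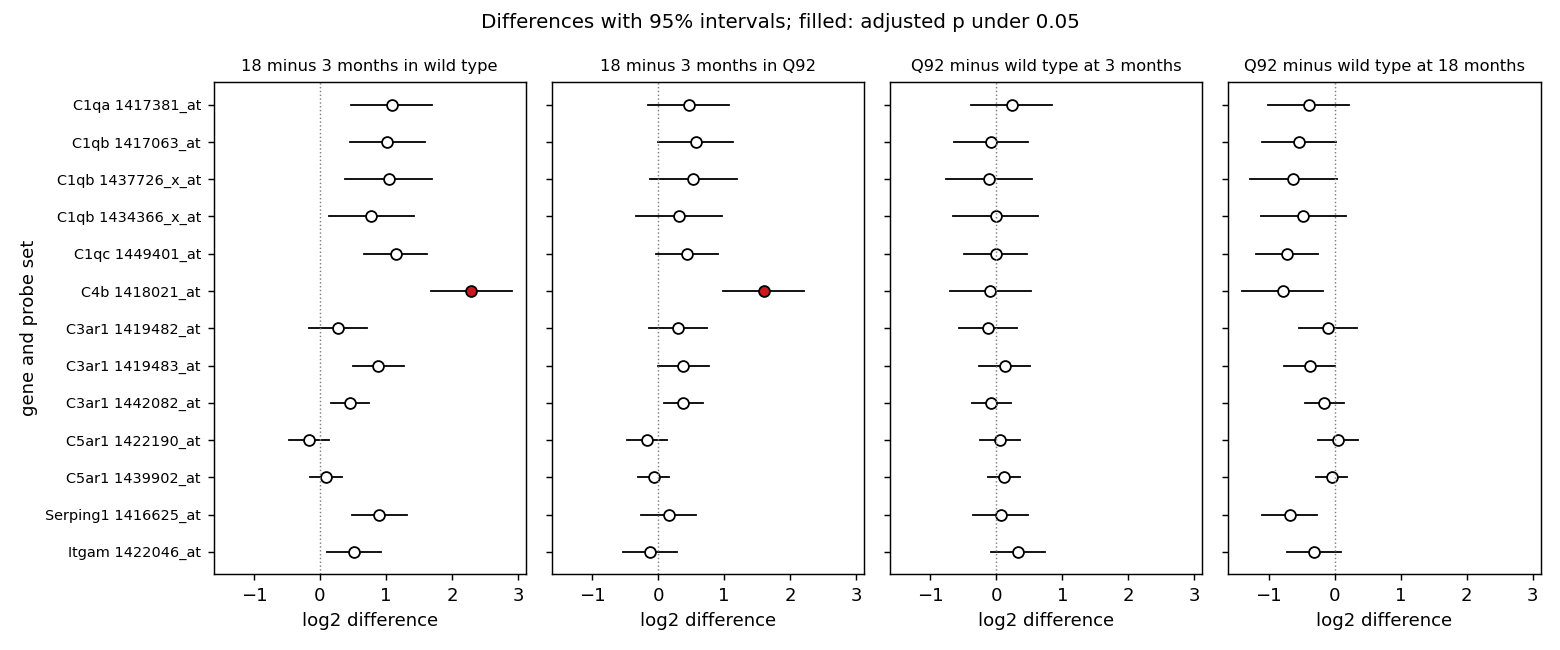
Log2 difference (horizontal axis) of each of the 13 complement probe sets (vertical axis) in 4 comparisons, with points for the estimate, lines for 95% confidence intervals and filled points for adjusted p under 0.05. C4b is the only filled point, in the wild-type and in the Q92 comparison of ages; between genotypes the estimates at 3 months lie on both sides of 0 (6 above, 7 below, the highest being Itgam at 0.33), and at 18 months 12 of 13 lie below 0.

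The second question was whether Q92 mice differed from wild type. At 3 months no complement probe set passed (0 of 13, against 0.0111% of all probe sets in limma; 0 of 13 reached an unadjusted p under 0.05, which 0.955% of all did upward and 1.69% downward). The groups overlapped for all 13, while 2.49% of all probe sets had Q92 mice entirely above wild type and 4.35% entirely below. The largest difference of a representative was that of Itgam (0.33, interval -0.08 to 0.74), with C1qa at 0.23 (interval -0.38 to 0.85) and C4b at -0.09 (interval -0.70 to 0.52).

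At 18 months 12 of the 13 probe sets had lower means in Q92 than in wild-type mice, with a median log2 difference of -0.39 (0.01 over all probe sets), and none passed, where 0.0533% of all did. Serping1 was 1.60-fold lower (-0.68, SE 0.19, interval -1.09 to -0.26, adjusted p = 0.312), C4b 1.72-fold (-0.79, interval -1.40 to -0.17, adjusted p = 0.499) and C1qc 1.65-fold (-0.72, interval -1.20 to -0.25, adjusted p = 0.368). Those 3 had an unadjusted p under 0.05 with a lower mean (4.24% of all probe sets did), and 0 were higher at that level (3.66% of all). The differences of C1qb and C1qa were -0.54 (interval -1.10 to 0.03, adjusted p = 0.653) and -0.39 (interval -1.01 to 0.23, adjusted p = 0.809). That of Itgam was -0.31 (interval -0.72 to 0.10), of C3ar1 -0.10 (interval -0.54 to 0.34) and of C5ar1 0.05 (interval -0.25 to 0.36). The other C3ar1 probe sets differed by -0.38 (1419483_at, interval -0.765 to 0.01, adjusted p = 0.647) and -0.15 (1442082_at). Serping1 alone had all 3 Q92 mice below all 3 wild-type mice, as did 6.76% of all probe sets.

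The size of these differences depended on single mice of both genotypes. Mouse Q92_18m_66 stood apart from the other 2 Q92 mice for C4b and the C1q chains, but not for Serping1. Without mouse Q92_18m_66 the difference was -1.16 for C4b (adjusted p = 0.128), -1.02 for C1qc (0.0594), -0.88 for C1qb (0.183), -0.78 for C1qa (0.249) and -0.77 for Serping1 (0.274). Without mouse wt_18m_17, the highest wild-type mouse for each of these 5 genes, it was -0.61 for C4b, -0.60 for C1qc, -0.34 for C1qb, -0.18 for C1qa and -0.55 for Serping1. Leaving out mouse Q92_18m_25 brought it to -0.58 for C4b, -0.50 for C1qc, -0.30 for C1qb, -0.21 for C1qa and -0.49 for Serping1. Leaving out mouse Q92_18m_11 brought C1qa to -0.18. With both arrays of lowest correlation left out (Q92_18m_66 and wt_3m_467), C1qc passed (-1.02, adjusted p = 0.0415). Genotype also coincided in part with age in days. Among the older mice only the age of 596 days held both genotypes, as 1 Q92 mouse (Q92_18m_11) against 2 wild-type mice (wt_18m_12 and wt_18m_17). A block for age in days therefore rests on that single Q92 mouse; it gave a difference of -1.40 for C4b, -0.98 for C1qa and -0.89 for C1qb, none past the test.

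Whether the genotype difference itself changed with age was tested directly. None of the 13 probe sets passed, and neither did any other (0% of 45037 in limma; 3 complement probe sets reached an unadjusted p under 0.05, all lower, as did 2.71% of all). The change was -0.74 for Serping1 (interval -1.33 to -0.15), -0.71 for C1qc (-1.38 to -0.04), -0.64 for Itgam (-1.22 to -0.06), -0.69 for C4b (-1.56 to 0.17), -0.62 for C1qa (-1.50 to 0.25) and -0.45 for C1qb (-1.25 to 0.34), with adjusted p of 0.946 or 0.950. The probe sets of C3ar1 disagreed, with a change of 0.03 for the brightest, -0.50 for 1419483_at (-1.05 to 0.05) and -0.08 for 1442082_at. A smaller age difference in Q92 than in wild-type mice is therefore not shown for any of these genes. Both age comparisons and the genotype comparisons share mice.

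By group mean the order of levels was the same for C1qa, C1qc, C1qb, Serping1 and C4b at its upper end, with wild type at 18 months highest and Q92 at 18 months second. The 2 groups of 3 months followed, with Q92 above wild type for C1qa and Serping1 and below it for C1qb, C1qc and C4b. The 3-month groups overlapped for each of these 5 genes, and the 18-month groups overlapped for all but Serping1. Itgam ran in the order wild type at 18 months, Q92 at 3 months, Q92 at 18 months and wild type at 3 months, with each neighbouring pair overlapping.

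These measurements are of whole tissue, so more microglia and more complement RNA per microglial cell cannot be told apart. Markers of microglia were therefore read beside the complement genes. Of 18 measured microglial genes, none of them a complement gene, 17 had higher means in older than in younger wild-type mice (median log2 difference 0.44) and 0 passed. The list was not uniform: P2ry12, a receptor of resting microglia, read 7.50 and 7.46 at the 2 ages in wild type, and Tmem119 read 6.60 and 7.01. In Q92 mice 9 of the 18 were higher and 9 lower at 18 months (median 0.00), and at 18 months 16 of 18 were lower in Q92 than in wild type (median -0.19). The mean of the list, relative to young wild-type mice, ran from -0.06 to 0.10 in wild type and 0.07 to 0.22 in Q92 at 3 months. Among older mice it ran from 0.38 to 0.74 in wild type and from -0.03 to 0.70 in Q92, and mouse Q92_18m_66 held the highest Q92 value. The part of this shift in the C1q differences was not tested.

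**Figure D3:**
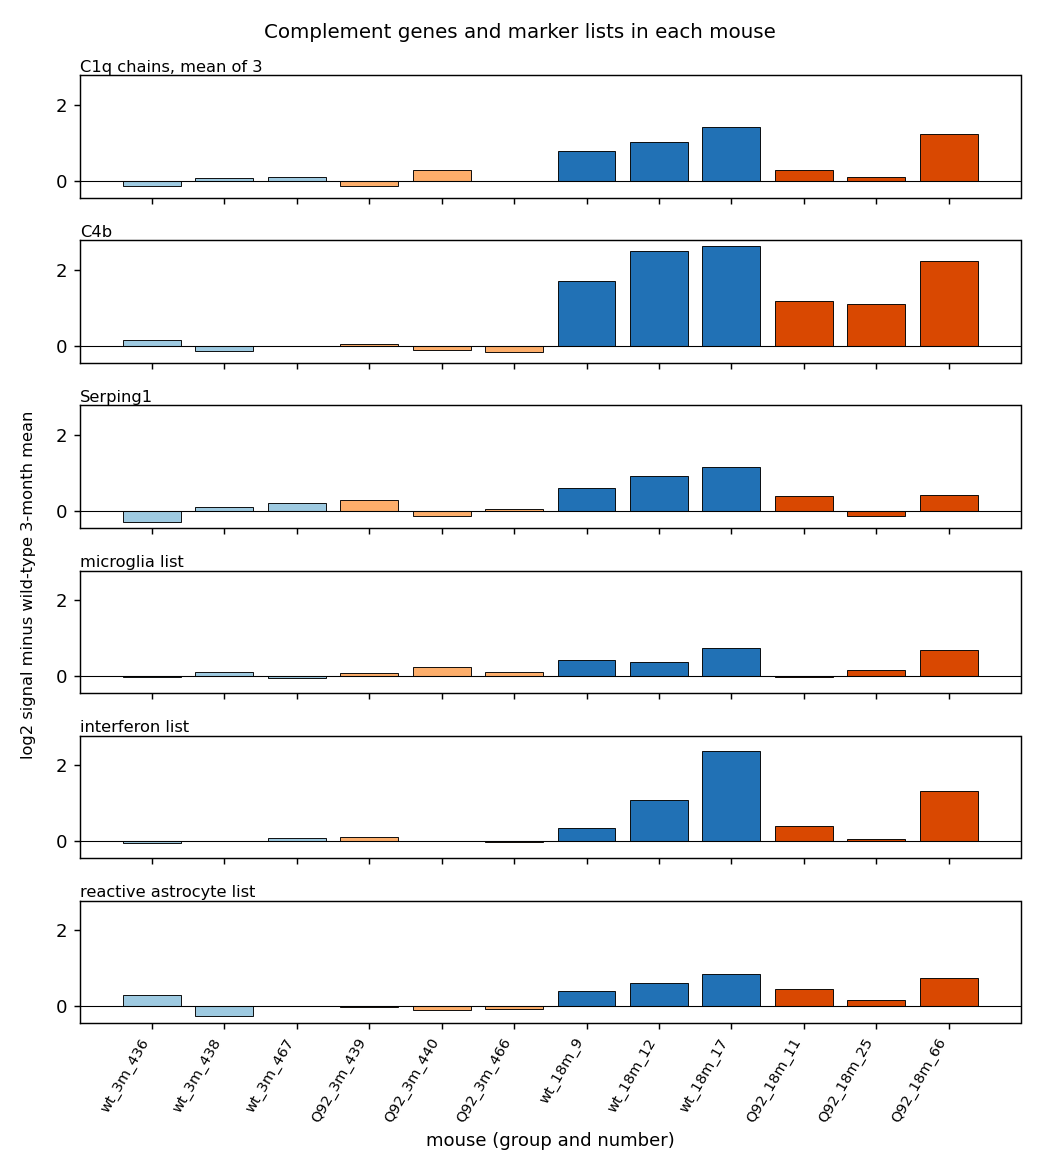
Log2 signal of complement genes and mean log2 signal of marker lists in each mouse, minus the mean of wild-type mice at 3 months (vertical axis, shared by the panels); bars are single mice, coloured by group, in order of animal number. The 6 panels show the C1q chains, C4b, Serping1 and the microglia, interferon and reactive astrocyte lists; in these, mice wt_18m_17 and Q92_18m_66 have the highest values of the 18-month groups, by a narrow margin for Serping1 in Q92 mice (0.41 against 0.40).

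C1q itself stood at 0.79, 1.03 and 1.43 in older wild-type mice 9, 12 and 17, as the mean of its 3 chains relative to young wild-type mice. It stood at 0.27, 0.11 and 1.23 in older Q92 mice 11, 25 and 66. Mouse Q92_18m_66 thus lay within the wild-type range, while the other 2 Q92 mice lay below it and close to the young mice (-0.15 to 0.28). C4b stood at 1.72, 2.51 and 2.64 in the older wild-type mice and at 1.18, 1.10 and 2.25 in the older Q92 mice, so that in the 2 Q92 mice whose C1q was near the young level C4b was still over 1 log2 unit higher.

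Other marker lists were read in the same way. The interferon-response list (7 genes measured) stood at 2.38 in mouse wt_18m_17 and 1.32 in mouse Q92_18m_66, against 0.33 and 1.07 in the other older wild-type mice and 0.40 and 0.06 in the other older Q92 mice. All 7 had higher means at 18 months in each genotype (median 0.83 in wild type, 0.32 in Q92) and 0 passed. The reactive astrocyte list (8 measured) stood at 0.40 to 0.85 in older wild-type and 0.15 to 0.74 in older Q92 mice. Of its genes, 7 had higher means at 18 months in each genotype (median 0.52 in wild type, 0.44 in Q92). Gfap, the astrocyte filament gene, rose with age in wild type (1.86, adjusted p = 0.0304) and alone passed there. In Q92 mice, where 0 passed, Gfap read 6.94 ± 0.20 and 7.97 ± 0.58 at 3 and 18 months. The part of these lists in the complement differences was not tested. Border macrophage and blood leukocyte markers (10 measured) went both ways with age in wild type, with 5 higher and 5 lower, log2 differences from -0.37 to 0.36 and 0 passing. Mrc1, a mannose receptor of border macrophages named here after its values were seen, read 3.75 ± 0.15 and 4.11 ± 0.06 in wild type at 3 and 18 months. Its 3 older wild-type mice lay above the younger ones (log2 difference 0.36, adjusted p = 0.292), as in 7.53% of all probe sets. Its 3 older Q92 mice lay below the older wild-type mice (-0.31, adjusted p = 0.461), as in 6.76% of all. Its group means, 3.75 to 4.11, lay under the 40th percentile of mean signal (4.27). Between genotypes at 18 months several lists had lower means in Q92 mice, as the complement genes did. All 9 astrocyte genes were lower (median -0.23, 0 passing), as were all 8 vascular genes (-0.16, 0 passing), all 7 interferon-response genes (-0.60, 0 passing) and all 6 projection neuron genes (-0.92, 1 passing). Meningeal fibroblast and choroid plexus genes were lower in 6 of 7 each (medians -0.21 and -0.20), the reactive astrocyte list in 5 of 8 (-0.12) and the border list in 7 of 10 (-0.04), with 0 passing. The choroid plexus differences ran from -0.38 to 1.39, and mouse wt_18m_12 stood far above the other older mice on that list. Without it the direction was the opposite: mice wt_18m_9 and wt_18m_17 stood at -0.10 and -0.46, and the older Q92 mice at 0.20, 1.20 and 0.46. The part of these shifts in the lower complement signals was not tested. Choroid plexus markers (7 measured) were highest in mice Q92_3m_439 (2.68) and wt_18m_12 (2.48). At 18 months mouse wt_18m_12 was between the other 2 wild-type mice for both C1q and C4b. The part of choroid plexus tissue in the complement signals was not tested. An 18S ribosomal RNA signal, the mean of 3 control probe sets, ran from 5.75 to 5.93 in older wild-type and 5.98 to 7.58 in older Q92 mice. With it as a covariate the 18-month genotype difference was -0.87 for C4b, -0.82 for C1qc and -0.74 for Serping1. Without it these were -0.79, -0.72 and -0.68. All older Q92 mice lay above all older wild-type mice in 18S signal, so genotype and this signal cannot be told apart at 18 months.

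Genes that ran most like C1q over the 12 arrays were sought among 12755 others with signal above the 40th percentile. They were Tyrobp (Pearson r = 0.97), which signals for microglial receptors, the Fc receptor gene Fcgr3 (0.97), Itgb2 (0.97), the lysozyme gene Lyz1 (0.97) and Fcer1g (0.96), a signalling chain of Fc receptors. Those most like C4b were Cd52 (0.98), the MHC class I genes H2-K1 (0.97) and H2-D1 (0.97), Lyz2 (0.97) and Fcgr3 (0.96). Lyz1, H2-K1 and H2-D1 were read by probe sets of the type that can share probes with other transcripts. Their signals may therefore not be theirs alone. Among the complement genes the closest pair was C1qb and C1qc (0.98), and C4b ran with C1qc at 0.92. C5ar1, whose signal was low throughout, had a coefficient of -0.45 with C1qb. The 12 arrays share their age and genotype groups, which sets much of such likeness, and no test was made.

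Of 48 further complement genes, 41 were measured. Over both genotypes 14 of them had higher and 27 lower means at 18 months, with a median log2 difference of -0.06 (-0.02 over all probe sets). Only Itgb2, the partner chain of Itgam in complement receptor 3, passed, where 0.444% of all probe sets did (0.289% upward). It read 5.28 ± 0.05 and 6.38 ± 0.36 in wild type at 3 and 18 months. In Q92 mice it read 5.18 ± 0.12 and 5.87 ± 0.59, and it rose 1.86-fold over both genotypes (log2 difference 0.89, SE 0.17, adjusted p = 0.0452). All 6 older mice lay above all 6 younger ones, as in 0.935% of all probe sets. Within one genotype it did not pass (adjusted p = 0.169 in wild type and 0.316 in Q92). Itgax, which pairs with Itgb2 as complement receptor 4, differed by 0.37 (adjusted p = 0.136) and Csmd1, a membrane inhibitor of complement expressed by neurons, by -0.37 (0.172).

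Between genotypes 0 of the 41 passed in limma at either age (adjusted p at least 0.435 at 18 months). At 18 months 21 had higher and 20 lower means in Q92 mice, with a median of 0.00. The 3 with the smallest p were Cfp, which encodes properdin, a stabiliser of the alternative pathway (-0.47, adjusted p = 0.435), Vtn, which encodes vitronectin, an inhibitor of the terminal complex (-0.35, 0.493), and Sez6, a neuronal protein with complement-control domains (-0.57, 0.493). Within each age comparison, after Itgb2, the smallest p in wild type were those of Itgax (0.44, adjusted p = 0.356) and Vtn (0.35, 0.370), and in Q92 mice those of Cd93 (-0.40, 0.453) and Cfp (-0.34, 0.454).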

How the data were processed

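Striatal RNA was hybridised to Affymetrix arrays, 1 for each of 12 mice. The authors deposited RMA values on a log2 scale, 1 per probe set, per the submitters' processing notes, which name RMA and affy without versions. Whether the arrays were normalised as 1 set is not stated there. RMA equalises the distribution of probe signals among arrays normalised together, so a difference is relative to the rest of the array. Of 45101 probe sets, 64 controls were left out.

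A mean per group was fitted to 12 arrays with limma 3.58.1 in R 4.3.3 (8 residual and 4.50 prior degrees of freedom), with 6 contrasts, each adjusted by Benjamini-Hochberg over 45037 probe sets at a threshold of 0.05. The code was tested on simulated data. Gene names came from the array's annotation table, and the brightest probe set stood for a gene. Named genes were every member, further complement genes past the threshold (or the 3 with the smallest p), the 5 most alike genes by Pearson correlation, and up to 2 genes of a marker list. Members, lists and tests were chosen with earlier results of these data known. Alternatives covered normalisation, centring, a signal filter, the prior, array weights, sex, fewer arrays and 1 value per gene; the 18S covariate, a block for age in days and leaving out 2 arrays were added after seeing the data.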

Additional observations from a re-analysis of the deposited data

Results flagged for a closer look

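Itgam was singled out because its genotype difference pointed opposite ways at the 2 ages. Every Q92 mouse was above the wild-type mean at 3 months and below it at 18 months. The margin was narrow for mouse Q92_18m_66, which read 4.79 against a wild-type mean of 4.80. That mouse lay above mice wt_18m_9 (4.63) and wt_18m_12 (4.55) and below mouse wt_18m_17 (5.24). The change of the difference was -0.64 (SE 0.27, unadjusted p = 0.0321), which did not pass over all probe sets in limma (adjusted p = 0.946). Itgam signal was low, with a mean of 4.55 over all arrays against 4.27 at the 40th percentile. In wild-type mice at 3 months its mean was 4.29.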

How the results depend on the processing

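C4b was past the threshold over both genotypes in all 22 other settings. Of 1098 values of single genes under 24 settings, 1026 kept their direction and side of the threshold. The count of complement probe sets or genes past the threshold (1 in each age comparison, 0 between genotypes) moved as follows. Over both genotypes it was 2 with quantile normalisation, with 1 probe set per gene and without both arrays of lowest correlation, and 3 with a common median, the signal filter, the intensity trend, array weights, a gene's averaged probe sets and the 18S covariate. In Q92 mice it was 0 with quantile normalisation, the intensity trend, sex, the compared arrays alone and without both arrays. In wild type it was 2 with array weights and without both arrays, and 0 with sex. At 18 months it was 1 (C1qc) without both arrays. Leaving out 1 mouse gave 0 to 2 in wild type, 0 to 1 in Q92 and 1 to 4 over both genotypes.

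Values that reversed were uncalled, and in the main fit they had been small (-0.13 to 0.06). With array weights they were, at 3 months, 0.0063 for C1qb, 0.0532 for C1qc and -0.0152 for C5ar1, and 0.0567 for the change of C5ar1, which was 0.0258 with sex and 0.0089 with the 18S covariate. The change of C3ar1, 0.03 for its brightest probe set, was -0.1828 as the mean of its probe sets. Without both arrays it was -0.2629, with -0.0252 for C5ar1 at 18 months and 0.0752 for C1qc and 0.0148 for C3ar1 at 3 months. For leaving out 1 mouse, the whole range is given, reversed or not. It gave, at 3 months, -0.2145 to 0.0392 for C1qb, -0.1006 to 0.0752 for C1qc, -0.296 to 0.0643 for C3ar1, -0.111 to 0.1467 for C5ar1 and -0.0895 to 0.1718 for Serping1. At 18 months it gave -0.2481 to 0.0894 for C3ar1 and -0.04 to 0.1334 for C5ar1, and for the change -0.1615 to 0.2164 and -0.0963 to 0.1656. The cause was not tested.

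No paired analysis was possible because animal numbers are not shared between groups. Signal near background limits C5ar1 and 1 C3ar1 probe set. Itgam and the remaining C3ar1 probe sets lay little above the 40th percentile of mean signal. Their percentiles were 44.2 for Itgam, 47.4 for 1419482_at and 45 for 1419483_at.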
